A study of Mus musculus with 8 samples.

Results

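The 8 genes described here encode proteins of the cytotoxic granule or of its known accessory set: the granzymes Gzma, Gzmb, Gzmk and Gzmm, the pore-forming protein perforin (Prf1), the granule membrane protein Nkg7, the granule proteoglycan serglycin (Srgn) and cathepsin W (Ctsw). They were taken as the probes whose RefSeq accession belongs to one of these gene symbols, which gave 9 probes for 8 of the 21154 genes named on the array. Nkg7 had 2 probes and the other 7 genes had 1 each. All 8 genes were well above background on all 8 arrays and were among the 13498 genes tested. On GRCm38.p6, Gzma (chr13:113093824-113100981) and Gzmk (chr13:113171630-113180965) lie on chromosome 13. Prf1 (chr10:61297751-61304684), Srgn (chr10:62493833-62527445) and Gzmm (chr10:79689020-79695261) lie on chromosome 10. Gzmb is at chr14:56258836-56262334, Nkg7 at chr7:43437138-43438246 and Ctsw at chr19:5465043-5468628.

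Cytotoxic granules are secretory lysosomes of natural killer (NK) cells, CD8 T cells and some activated CD4 T cells. On contact with a target cell, perforin opens a path for granzymes, serine proteases that cleave proteins of the target and can start its death. Serglycin holds granzymes and perforin in the granule core, and regulatory T cells in mice have been described to use granzyme B in suppression.

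The study hybridised RNA from 8 sorted samples of mouse thymocytes to one-colour arrays, with 2 biological replicates in each of 4 groups. Every group consisted of CD4 single-positive thymocytes that were lysed fresh, without culture. The Nr4a-TKO preTreg group held Treg precursors of the Nr4a-TKO genotype, sorted for high CD25, high GITR and high Nr4a3. The Foxp3-KO preTreg group held Treg precursors of the Foxp3-KO genotype, sorted for high CD25 and a positive Foxp3 reporter. WT Treg were wild-type thymic regulatory T cells, sorted as Foxp3-positive, and WT Tconv were conventional T cells from wild-type thymus, sorted as low for CD25. Which cells carried each deletion, the age of the mice and whether mice were pooled are points that the labels leave unstated. A wild-type precursor group was not among the samples, and genotype and gate therefore changed together between each precursor group and each wild-type group.

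The targeted genes were read first. Foxp3 had a log2 signal of 3.80 and 3.25 in Nr4a-TKO preTreg, 1.97 and 1.74 in Foxp3-KO preTreg, 5.0 and 4.72 in WT Treg, and -3.40 and -3.79 in WT Tconv. Foxp3 signal thus stayed well above WT Tconv in the libraries labelled Foxp3-KO. Nr4a1 had 7.73 and 7.96 in Nr4a-TKO preTreg, 7.17 and 7.60 in Foxp3-KO preTreg, 7.28 and 7.62 in WT Treg, and 6.84 and 6.83 in WT Tconv. Nr4a2 had 3.72 and 3.87 in Nr4a-TKO preTreg, 1.86 and 1.26 in Foxp3-KO preTreg, 1.60 and 1.79 in WT Treg, and -1.51 and -1.56 in WT Tconv. Nr4a3 had -0.42 and -0.12 in Nr4a-TKO preTreg, -0.88 and -0.33 in Foxp3-KO preTreg, -0.36 and 1.01 in WT Treg, and -1.53 and -1.57 in WT Tconv. The arrays labelled Nr4a-TKO were the highest for Nr4a1 and Nr4a2, and for Nr4a3 they were above WT Tconv and overlapped WT Treg. Whether these probes lie inside a deleted part is unknown here, so they check neither genotype, and group names below are those of the labels.

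On every array the 8 matched genes of the CD4 T cell list, among them Cd4 and Zbtb7b, were above background, as were the 9 genes of the list for regulatory T cells and their precursors. Between 47.7% and 52.1% of probes were well above background, and no spot was saturated. The Foxp3-KO preTreg arrays differed from each other in markers of NK cells. Of 12 listed NK and innate lymphoid genes, 10 and 9 were above background in Nr4a-TKO preTreg, 12 and 8 in Foxp3-KO preTreg, 4 and 3 in WT Treg, and 10 and 11 in WT Tconv. Results of the 8 granule genes that rest on the Foxp3-KO preTreg group are therefore also given with either replicate left out. The counts and medians of the gene lists below, and the calls of other named genes in that group, have no such check. Values are log2 signals relative to the 75th percentile of the array, so 0 is the level of that percentile, and only values of 1 gene are compared with each other. Differences are the first group minus the second, with standard errors (SE) and Benjamini-Hochberg adjusted p-values from 1 limma fit to all tested genes. A gene was called at an adjusted p under 0.05. The fit gives each gene 1 spread for all 4 groups, so a gap between the Foxp3-KO preTreg arrays also enters comparisons without that group. For Gzma the SE was 1.08 in every comparison, with a standard deviation of 2.44 in Foxp3-KO preTreg and 0.035 in WT Tconv. A missing call is therefore no evidence that groups were alike. All arrays were on 1 slide, with Nr4a-TKO preTreg and WT Tconv in row 1 and Foxp3-KO preTreg and WT Treg in row 2. Row and group cannot be told apart in the 4 comparisons that cross rows.

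The promoters of the 3 genes that rose in Nr4a-TKO preTreg, Gzmb, Nkg7 and Srgn, are shown because these genes were called together. The sequences are the 250 bases before the annotated start, from RefSeq on GRCm38.p6. Capitals mark matches on either strand to T-box (AGGTGTGA), RUNX (TGTGGT), AP-1 (TGANTCA), STAT (TTCNNNGAA) or NR4A (AAAGGTCA) motifs. The array design names an older build, mm9, and the coordinates place only the printed sequences. Gzmb is at chr14:56262335-56262584 on the minus strand, Nkg7 at chr7:43436888-43437137 on the plus strand, and the second annotated start of Srgn at chr10:62507758-62508007 on the minus strand.
Gzmb: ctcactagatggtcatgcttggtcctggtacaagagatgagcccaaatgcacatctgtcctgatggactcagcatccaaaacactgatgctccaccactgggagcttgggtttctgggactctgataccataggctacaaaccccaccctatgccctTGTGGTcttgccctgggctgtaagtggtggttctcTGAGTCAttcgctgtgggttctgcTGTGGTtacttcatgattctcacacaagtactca
Nkg7: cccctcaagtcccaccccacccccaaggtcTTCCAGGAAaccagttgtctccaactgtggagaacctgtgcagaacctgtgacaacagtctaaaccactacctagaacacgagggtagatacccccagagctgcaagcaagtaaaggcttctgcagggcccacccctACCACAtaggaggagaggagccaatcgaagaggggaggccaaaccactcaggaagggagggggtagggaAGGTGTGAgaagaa
Srgn: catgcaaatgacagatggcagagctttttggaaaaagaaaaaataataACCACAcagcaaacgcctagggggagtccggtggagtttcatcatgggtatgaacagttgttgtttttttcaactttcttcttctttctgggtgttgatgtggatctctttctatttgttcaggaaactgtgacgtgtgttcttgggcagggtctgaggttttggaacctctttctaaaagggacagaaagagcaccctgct
Gzmb held 2 RUNX matches and 1 AP-1 match, Nkg7 held a T-box, a RUNX and a STAT match, and this Srgn window held a RUNX match. The window before the first annotated start of Srgn, chr10:62527446-62527695, held none of the 5 motifs. No match overlapped another. RUNX letters were also present before Prf1, Gzma and the first start of Gzmm, the last with STAT letters too. These genes had no call in Nr4a-TKO preTreg in the main fit. None of the 5 motifs was found before Gzmk. The NR4A letters were in none of the 7 members found in the promoter table. Of 32851 windows of the same length, 14.0% held the RUNX letters, 6.75% AP-1, 7.02% STAT, 1.34% NR4A and 1.12% T-box. These matches describe letters in a window and say nothing of binding.

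Nr4a-TKO preTreg had more Gzmb, Nkg7 and Srgn RNA than WT Tconv, and the other 5 granule genes were not called. The comparison called 48.2% of all tested genes, 21.4% as higher and 26.8% as lower. Against that background 3 of 8 members rose and 0 fell. The arrays of the groups did not overlap for 6 of 8 members, where 82.3% of all tested genes did not overlap. The median difference of the members was 0.33, against -0.10 over all tested genes.

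Gzmb, the granzyme that cleaves after aspartate and can activate caspases, had the largest difference of the members. Its log2 signal was 6.38 and 5.77 in Nr4a-TKO preTreg, 1.54 and -1.58 in Foxp3-KO preTreg, -0.31 and 0.31 in WT Treg, and 1.02 and 1.16 in WT Tconv. Both Nr4a-TKO preTreg arrays lay above all 6 other arrays. The mean was 4.99 higher than in WT Tconv on the log2 scale (SE 0.97, 95% interval 2.57 to 7.41, adjusted p = 0.0105), or 31.7-fold. It was also 6.08 higher than in WT Treg (SE 0.97, adjusted p = 0.00849), or 67.4-fold, and 6.09 higher than in Foxp3-KO preTreg (SE 0.97, adjusted p = 0.00927), or 68.2-fold. The adjusted p against WT Tconv was 0.0576 without Nr4a-TKO preTreg replicate 1, 0.0587 without WT Tconv replicate 1 and 0.0536 without WT Tconv replicate 2, with a difference of 4.68 to 5.29 over all leave-one-out fits. In RNA from a sorted population, fewer cells of a type and less RNA per cell cannot be told apart, here and for every gene below.

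Nkg7, a membrane protein of granules needed for efficient degranulation in mouse lymphocytes, followed the same pattern. Its log2 signal was 6.26 and 6.35 in Nr4a-TKO preTreg, 5.18 and 2.88 in Foxp3-KO preTreg, 3.72 and 3.63 in WT Treg, and 3.71 and 3.77 in WT Tconv. Both Nr4a-TKO preTreg arrays were the highest, and the WT Treg and WT Tconv arrays lay between 3.63 and 3.77. The mean was 2.56 higher in Nr4a-TKO preTreg than in WT Tconv (SE 0.69, adjusted p = 0.0287), or 5.91-fold. It was 2.63 higher than in WT Treg (SE 0.69, adjusted p = 0.0347), a call lost with no filter on dim probes (adjusted p = 0.0574). Against Foxp3-KO preTreg the difference of 2.28 was not called (adjusted p = 0.0529). It was called in 4 of 11 alternatives, with median scaling (adjusted p = 0.0433), normexp (0.0275), only probes above background on all arrays (0.0357) and an intensity trend (0.0268). The second probe of Nkg7 gave 2.79 in Nr4a-TKO preTreg against WT Tconv (adjusted p = 0.0391), but was not called against WT Treg (2.75, adjusted p = 0.0519) or Foxp3-KO preTreg (2.40, adjusted p = 0.0736). The call against WT Tconv was made in 2 of 8 fits that left out 1 array, those without either Foxp3-KO preTreg replicate, and the adjusted p reached 0.113 in the others.

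Srgn, the core proteoglycan of the granule, was called in 4 of the 6 comparisons, more than any other member. Its log2 signal was 7.76 and 7.46 in Nr4a-TKO preTreg, 5.95 and 5.05 in Foxp3-KO preTreg, 5.82 and 6.03 in WT Treg, and 4.73 and 4.83 in WT Tconv. The WT Tconv arrays were the lowest and the Nr4a-TKO preTreg arrays the highest, and the arrays of Foxp3-KO preTreg and WT Treg overlapped. In Nr4a-TKO preTreg the mean was 2.83 higher than in WT Tconv (SE 0.30, adjusted p = 0.00180), or 7.12-fold, and this call held in 8 of 8 leave-one-out fits. It was 1.69 higher than in WT Treg (SE 0.30, adjusted p = 0.0116) and 2.11 higher than in Foxp3-KO preTreg (SE 0.30, adjusted p = 0.00683). Srgn is expressed by many blood cells besides cytotoxic ones, macrophages included.

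**Figure D1:**
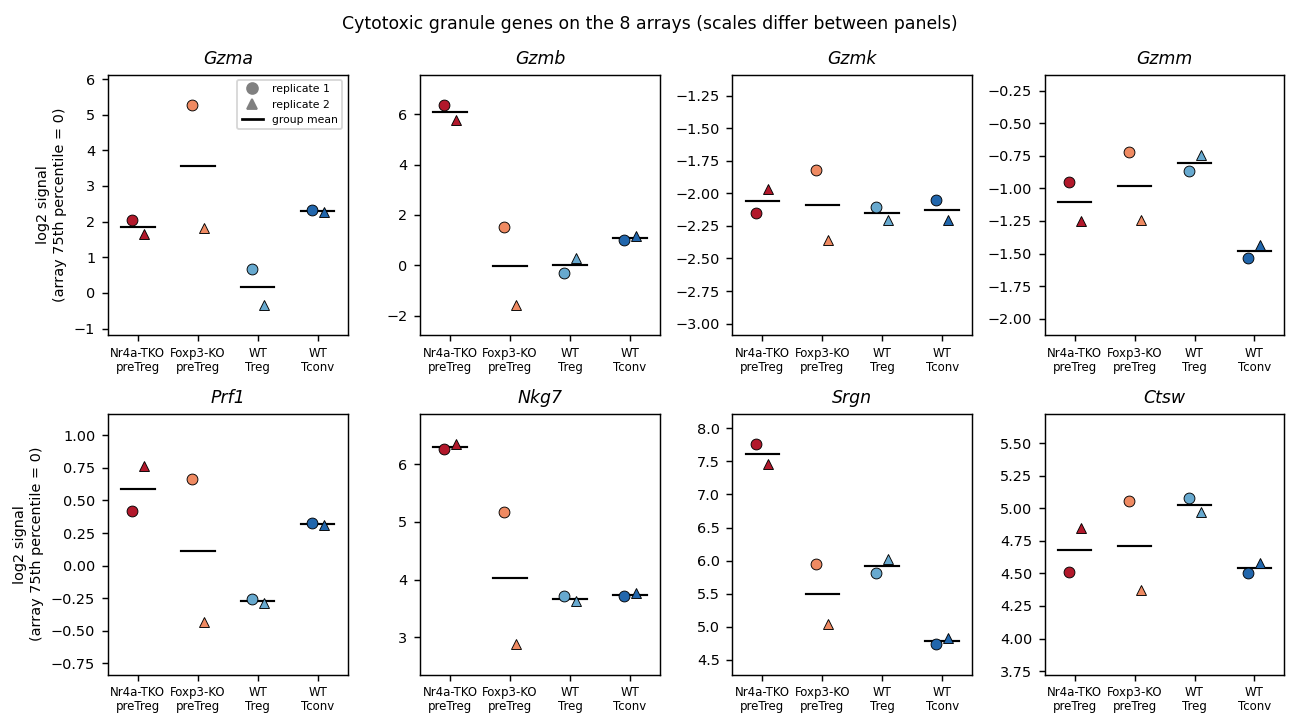
Log2 signal of the 8 granule genes relative to the 75th percentile of the array (vertical axes, which differ between panels) in the 4 groups (horizontal axes). Circles are replicate 1, triangles replicate 2 and bars the group means. The Nr4a-TKO preTreg arrays are the highest for Gzmb, Nkg7 and Srgn, and the 2 Foxp3-KO preTreg arrays lie far apart for Gzma (5.28 and 1.83), Gzmb and Nkg7.

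The other granzymes and perforin were not called in Nr4a-TKO preTreg in the main fit. Gzma, the tryptase-like granzyme that is most abundant in NK and CD8 T cells, had a log2 signal of 2.04 and 1.66 in Nr4a-TKO preTreg, 5.28 and 1.83 in Foxp3-KO preTreg, 0.67 and -0.34 in WT Treg, and 2.33 and 2.28 in WT Tconv. The Nr4a-TKO preTreg arrays were just below those of WT Tconv, and the difference of -0.45 was not called (SE 1.08, 95% interval -3.15 to 2.25, adjusted p = 0.751). Prf1, which forms the pore, had 0.42 and 0.76 in Nr4a-TKO preTreg, 0.66 and -0.43 in Foxp3-KO preTreg, -0.25 and -0.28 in WT Treg, and 0.33 and 0.31 in WT Tconv. Its difference between Nr4a-TKO preTreg and WT Tconv was 0.27 (SE 0.35, 95% interval -0.59 to 1.14, adjusted p = 0.545). The Nr4a-TKO preTreg arrays were above those of WT Tconv for Prf1, but the 95% interval of the difference held 0.

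Gzmm, a granzyme that cleaves after methionine or leucine, and Gzmk, a further tryptase-like granzyme, were dim. Gzmm had a log2 signal of -0.95 and -1.25 in Nr4a-TKO preTreg, -0.72 and -1.24 in Foxp3-KO preTreg, -0.86 and -0.74 in WT Treg, and -1.53 and -1.43 in WT Tconv. Each of the 6 arrays of the other groups was above both WT Tconv arrays, and WT Treg had the highest mean. Gzmk stayed between -2.36 and -1.82 on the 8 arrays, with group means from -2.15 in WT Treg to -2.06 in Nr4a-TKO preTreg, and none of its 6 differences was called. Ctsw, a cysteine protease of the papain family found in NK and CD8 T cells, had 4.51 and 4.85 in Nr4a-TKO preTreg, 5.06 and 4.37 in Foxp3-KO preTreg, 5.08 and 4.97 in WT Treg, and 4.51 and 4.58 in WT Tconv. Its 6 comparisons also gave no call, the largest difference being 0.48 in WT Treg against WT Tconv (adjusted p = 0.176).

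Between WT Treg and WT Tconv, Srgn and Gzmm were higher in WT Treg, and Gzma, Gzmb and Prf1 had lower values without a call. Of 8 members, 2 rose and 0 fell, where 35.4% of all tested genes were called, 13.8% as higher and 21.5% as lower. The arrays did not overlap for 6 of 8 members, where 77.9% of all tested genes did not overlap. Srgn was 1.14 higher in WT Treg (SE 0.30, adjusted p = 0.0341) and Gzmm 0.68 higher (SE 0.20, adjusted p = 0.0447). Both calls were lost in 6 of 8 leave-one-out fits, and both were made in the other 2, which left out either Foxp3-KO preTreg array. The Gzmm call was also lost with the replicate number as a block (adjusted p = 0.0546), with quantile normalization (0.0537), with median scaling (0.0693) and with no filter on dim probes (0.0786), and the Srgn call with no filter (0.0612). Gzma was at -2.14 (SE 1.08, adjusted p = 0.180), Gzmb at -1.09 (SE 0.97, adjusted p = 0.424) and Prf1 at -0.59 (SE 0.35, adjusted p = 0.239). In a fit of these 2 groups alone, 6 of 8 members were called, Gzmm, Srgn and Ctsw as higher and Gzma, Gzmb and Prf1 as lower in WT Treg. That fit called 6006 of the 13498 tested genes, 2394 as higher and 3612 as lower. Leaving a Foxp3-KO preTreg array out of the fit of 4 groups cannot change these differences, only their SE and with it the calls.

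Foxp3-KO preTreg differed from WT Tconv in 0 of 8 members, where 24.6% of all tested genes were called and 10.4% rose, and 1 member passed an unadjusted p under 0.05. Against WT Treg it also differed in 0 of 8, where 6.41% of all tested genes were called and 3.48% rose, again with 1 member at an unadjusted p under 0.05. The arrays of Foxp3-KO preTreg and WT Tconv did not overlap for 2 members, Gzmm and Srgn, where 70% of all tested genes did not overlap, and against WT Treg for 1 member, Gzma, where 52.5% did not overlap. These counts depend on which Foxp3-KO preTreg array is kept. Without replicate 2, Gzma (2.98, adjusted p = 0.0135), Gzmm (0.77, adjusted p = 0.0254), Nkg7 (1.44, adjusted p = 0.00218) and Srgn (1.17, adjusted p = 0.0125) were called higher than in WT Tconv. Without replicate 1, Gzmb (-2.67, adjusted p = 0.0180), Prf1 (-0.75, adjusted p = 0.0388) and Nkg7 (-0.86, adjusted p = 0.0102) were called lower. Nkg7 thus had opposite calls. Against WT Treg, Gzma (5.12, adjusted p = 0.0121), Prf1 (0.93, adjusted p = 0.0414) and Nkg7 (1.5, adjusted p = 0.00555) were called higher without replicate 2. Nkg7 (-0.79, adjusted p = 0.0139) and Srgn (-0.87, adjusted p = 0.0454) were called lower than in WT Treg without replicate 1. A group left with 1 array is assumed in such a fit to vary like the others. The number of all tested genes called also changed with the array left out, so the shares above do not apply to these calls.

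**Figure D2:**
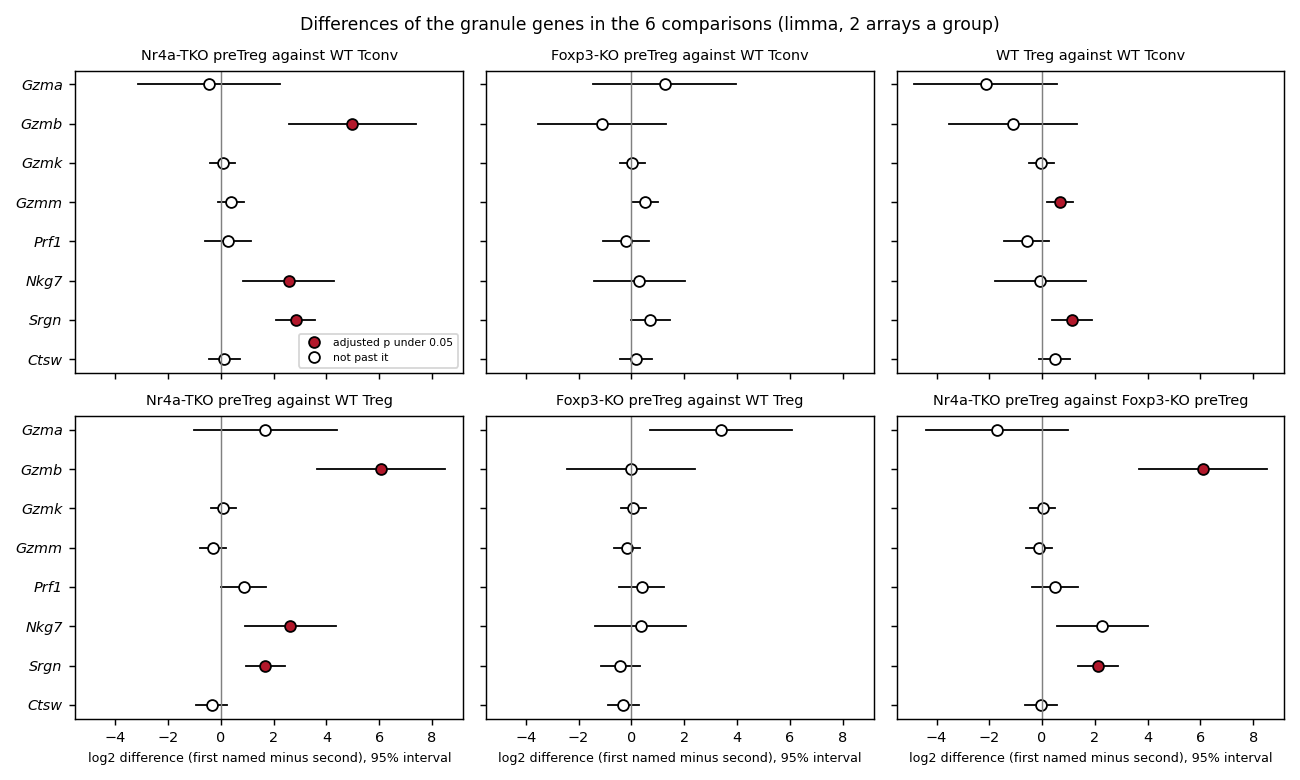
Log2 difference (horizontal axes, first named group minus the second) of each member in the 6 comparisons, with 95% intervals. Filled points passed an adjusted p of 0.05. Gzmb and Srgn are filled in the 3 comparisons that have Nr4a-TKO preTreg first, and no point is filled in the 2 comparisons that set Foxp3-KO preTreg against a wild-type group.

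Gzmb and Srgn were also called higher in Nr4a-TKO preTreg than in WT Treg and in Foxp3-KO preTreg, and Nkg7 than in WT Treg. Against WT Treg 3 of 8 rose and 0 fell, where 35.4% of all tested genes were called and 19.4% rose. Arrays did not overlap for 7 of 8 members, where 74.9% of all tested genes did not overlap. Srgn lost this call without Nr4a-TKO preTreg replicate 1 (adjusted p = 0.0630) and without WT Treg replicate 1 (adjusted p = 0.0590), and Nkg7 was called in 2 of 8 such fits. In the main fit, Gzma (1.69, SE 1.08) and Prf1 (0.86, SE 0.35) had higher values in Nr4a-TKO preTreg than in WT Treg without a call. Both SEs include the spread of the Foxp3-KO preTreg arrays. In a fit of Nr4a-TKO preTreg and WT Treg alone, Prf1 was called higher (adjusted p = 0.0288) and Gzma was not called. That fit called 3920 of the 13498 tested genes, 2238 as higher and 1682 as lower. The comparison with Foxp3-KO preTreg called 2 of 8, Gzmb and Srgn, where 33.8% of all tested genes were called and 18% rose. In a fit of these 2 groups alone neither was called (adjusted p = 0.0671 for Gzmb and 0.0594 for Srgn). Arrays did not overlap for Gzmb, Nkg7 and Srgn, 3 of 8 members, where 69% of all tested genes did not overlap. The 3 comparisons share the Nr4a-TKO preTreg arrays and are not independent of each other. Against Foxp3-KO preTreg, the Gzmb call was lost without Nr4a-TKO preTreg replicate 1 (adjusted p = 0.0526). Without Foxp3-KO preTreg replicate 1, Prf1 (1.02, adjusted p = 0.00937) and Nkg7 (3.43, adjusted p = 0.000199) were also called higher in Nr4a-TKO preTreg. Without Foxp3-KO preTreg replicate 2, Nkg7 (1.13, adjusted p = 0.00399) was called higher and Gzma (-3.43, adjusted p = 0.0109) lower.

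The 2 Foxp3-KO preTreg arrays differed more for the granule genes than for most genes. The median gap between the replicates, over all tested genes and regardless of sign, was 0.20 on the log2 scale. Gzma was 3.46 higher in replicate 1, or 11-fold, and 64 of 13498 genes had a larger gap. Gzmb was 3.12 higher, or 8.69-fold, with 101 genes beyond it, and Nkg7 was 2.30 higher, or 4.92-fold, with 285 beyond it. The gap was 1.09 for Prf1, 0.91 for Srgn, 0.69 for Ctsw, 0.54 for Gzmk and 0.53 for Gzmm, so all 8 members were higher in replicate 1. In the other groups the largest gap of a member was 1.01, for Gzma between the WT Treg arrays.

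NK receptor genes moved with that gap. The 10 listed NK receptor genes other than Fcer1g and Tyrobp, which myeloid cells also express, had a summed linear signal of 2.26 and 2.54 in Nr4a-TKO preTreg, 29.0 and 3.30 in Foxp3-KO preTreg, 0.61 and 0.38 in WT Treg, and 14.3 and 14.1 in WT Tconv, in units of the 75th percentile of the array. Those 2 genes were set aside after the values were seen. Foxp3-KO preTreg replicate 1 was the highest array and WT Treg the lowest group. Klrd1, the CD94 subunit of NK receptors, had 2.67 in Foxp3-KO preTreg replicate 1 and -0.17 in replicate 2, and Ncr1, the NKp46 receptor of NK cells, had -0.14 and -5.10, of which the second was not well above background. Gzmc, a granzyme of activated cytotoxic cells, showed the widest gap of the granzymes, at 4.03 and -2.49, or 91.5-fold, and 2 genes had a larger gap. Its 3 differences from WT Tconv were not called. Gzmc is not a member and was singled out after its values were seen. The part of NK cells in these results was not tested.

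**Figure D3:**
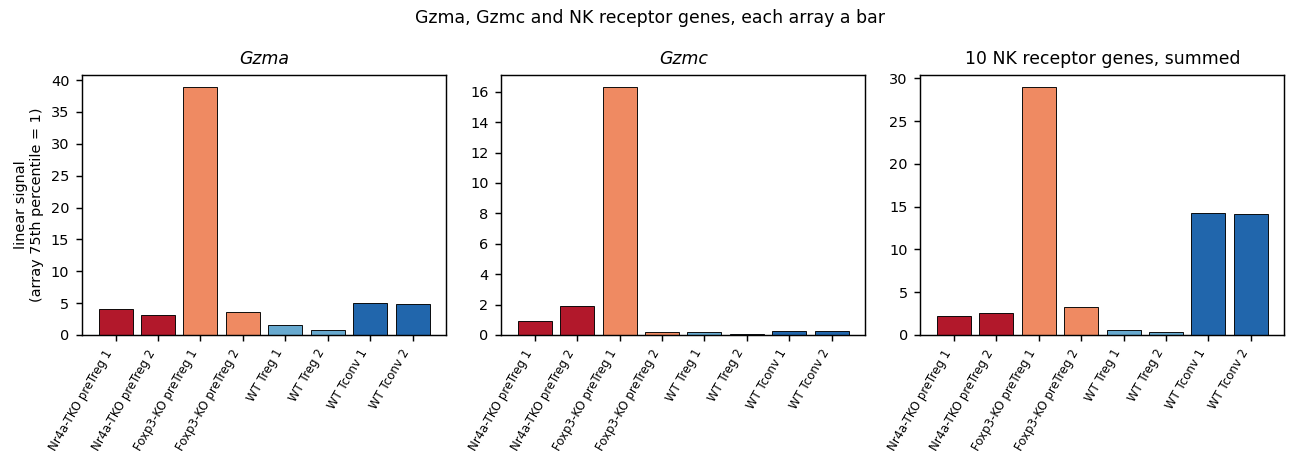
Linear signal relative to the 75th percentile of the array (vertical axes) of Gzma, Gzmc and the sum of 10 NK receptor genes, with a bar for each of the 8 arrays. Foxp3-KO preTreg replicate 1 has the highest bar in all 3 panels, and the WT Tconv arrays (14.3 and 14.1) come next in the NK receptor sum.

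The same NK list was set beside the Nr4a-TKO preTreg result. Summed NK receptor signal was lower in Nr4a-TKO preTreg (2.26 and 2.54) than in WT Tconv (14.3 and 14.1), and Gzmb, Nkg7 and Srgn were higher. Not every NK receptor was lower. Ncr1 had -2.91 and -3.46 in Nr4a-TKO preTreg and -5.59 and -5.83 in WT Tconv. It was not well above background in WT Tconv, and its difference was not called (adjusted p = 0.243). Ncr1 entered the test only because both Nr4a-TKO preTreg arrays were above background. Klrb1b differed by 0.18 (adjusted p = 0.910). Klra8, an activating Ly49 receptor, was lower in Nr4a-TKO preTreg than in WT Tconv (-4.41, adjusted p = 0.00888), and Klrb1c, the NK1.1 antigen, had a difference of -3.07 (adjusted p = 0.0443). Of 11 NK and innate lymphoid genes tested, 2 were called higher, Fcer1g and Tyrobp, and 2 lower, where 21.4% of all tested genes rose and 26.8% fell. The part of cells with these genes in the Gzmb, Nkg7 and Srgn differences was not tested. Over all 12 genes the summed signal was 26.0 and 18 in Nr4a-TKO preTreg, 72.5 and 14.5 in Foxp3-KO preTreg, 7.71 and 3.24 in WT Treg, and 16.9 and 16.8 in WT Tconv.

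Markers of B cells and myeloid cells were higher in Nr4a-TKO preTreg. For B cells 6 of 7 tested genes rose against WT Tconv, with summed signals of 66.9 and 16.9 in Nr4a-TKO preTreg, 20.1 and 4.82 in Foxp3-KO preTreg, 5.84 and 4.23 in WT Treg, and 2.26 and 2.15 in WT Tconv. Over all tested genes 21.4% rose and 26.8% fell in that comparison. Cd79a and Ebf1, among the 7 tested, entered the test only because both Nr4a-TKO preTreg arrays were above background. The same held for Cd14 in the list of macrophages and dendritic cells. For macrophages and dendritic cells 11 of 13 rose and 1 fell, with sums of 728 and 595 in Nr4a-TKO preTreg, 610 and 513 in Foxp3-KO preTreg, 504 and 449 in WT Treg, and 426 and 446 in WT Tconv. Siglech, between 8.35 and 8.61 on every array, was the largest term of that sum, and the median log2 difference of the list from WT Tconv was 4.35, or 3.89 with genes below background at their bound. The B cell list had a median of 4.10, or 3.49 with bounds. The B cell sum of Nr4a-TKO preTreg replicate 1 was the highest of the 8 arrays, and so was its sum for macrophages and dendritic cells. Gzmb, Nkg7 and Srgn differed by 0.61, -0.09 and 0.30 on the log2 scale between replicate 1 and replicate 2 of Nr4a-TKO preTreg. B cell transcription factor Pax5 was above background on 1 array and the dendritic cell receptor Xcr1 on 0. The part of these cells in the Srgn, Gzmb and Nkg7 results was not tested.

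Of the 4 CD8 T cell genes, 1 rose and 0 fell in Nr4a-TKO preTreg against WT Tconv. Over all tested genes 21.4% rose and 26.8% fell, which is the background for each count in this paragraph. Klrg1, an inhibitory receptor of effector T cells that regulatory T cells can also carry, was at least 243-fold higher in Nr4a-TKO preTreg than in WT Tconv, where it was not well above background (adjusted p = 0.00250). This bound sets the mean signal of Nr4a-TKO preTreg against the lowest signal well above background. Cd8a had -0.87 and -0.48 in Nr4a-TKO preTreg and -1.12 and -0.92 in WT Tconv (adjusted p = 0.457), and Cd8b1 had 0.37 and 0.97 in Nr4a-TKO preTreg and 1.37 and 1.22 in WT Tconv (adjusted p = 0.0981). The 4 genes summed to 22.2 and 13.7 in Nr4a-TKO preTreg, 4.93 and 3.68 in Foxp3-KO preTreg, 3.61 and 3.22 in WT Treg, and 4.54 and 4.35 in WT Tconv. In Nr4a-TKO preTreg the largest term of this sum was Klrg1, at a log2 signal of 4.14 and 2.99. For innate-like and gamma delta T cells 0 of 5 rose and 2 fell, among them Zbtb16, the PLZF factor of innate-like T cells (-3.61, adjusted p = 0.000549), with sums of 3.42 and 4.35 in Nr4a-TKO preTreg, 11 and 3.5 in Foxp3-KO preTreg, 1.67 and 1.37 in WT Treg, and 14.9 and 14.0 in WT Tconv. For mast cells and granulocytes 1 of 6 rose and 1 fell, with sums from 1.81 to 4.16 on the 8 arrays. Ltf, among the 6 tested, entered the test only because both Nr4a-TKO preTreg arrays were above background. The mast cell proteases Mcpt4 and Cma1 were above background on 0 arrays. The part of these cells was not tested.

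The partners of the 8 genes were read from 5 lists of genes with known roles around the granule, and the 3 comparisons with WT Tconv share its arrays. Over all tested genes these called 21.4% as higher and 26.8% as lower in Nr4a-TKO preTreg, 10.4% and 14.3% in Foxp3-KO preTreg, and 13.8% and 21.5% in WT Treg. Among other granule contents, 3 of 9 tested genes rose and 0 fell in Nr4a-TKO preTreg against WT Tconv, where 48.2% of all tested genes were called, with a list median of 0.51 against -0.10 over all tested genes. Cst7, cystatin F, an inhibitor of granule cathepsins, had 5.31 and 5.11 in Nr4a-TKO preTreg, 2.83 and -0.08 in Foxp3-KO preTreg, 1.96 and 2.10 in WT Treg, and 1.04 and 1.09 in WT Tconv. It was 4.15 higher in Nr4a-TKO preTreg than in WT Tconv (adjusted p = 0.0136). Cd63, a tetraspanin of lysosomes and granules, was 3.17 higher (adjusted p = 0.00733). Calr, the chaperone calreticulin, had a difference of -0.06 in Nr4a-TKO preTreg (adjusted p = 0.584) but fell in WT Treg against WT Tconv (-0.60, adjusted p = 0.00471), as did the lysosomal protease Ctsd (-0.87, adjusted p = 0.0155). The granzymes Gzmd, Gzme, Gzmf, Gzmg and Gzmn were above background on 0 of 8 arrays. Against WT Tconv, Foxp3-KO preTreg had 1 gene of this list higher and 1 lower (median 0.26), and WT Treg 0 higher and 2 lower (median -0.30).

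For granule maturation and release, 6 of 16 genes rose and 2 fell in Nr4a-TKO preTreg against WT Tconv, against 3 and 4 in Foxp3-KO preTreg and 3 and 4 in WT Treg. The 8 of 16 called in Nr4a-TKO preTreg compare with 48.2% of all tested genes. The list medians were 0.04, -0.11 and -0.05. Stx11, a syntaxin needed for granule fusion in cytotoxic lymphocytes, had 2.39 and 2.15 in Nr4a-TKO preTreg, 0.79 and -0.36 in Foxp3-KO preTreg, 1.06 and 1.24 in WT Treg, and -3.03 and -3.75 in WT Tconv. The WT Tconv arrays were well below all others, and Stx11 was 5.66 higher in Nr4a-TKO preTreg (adjusted p = 0.000761), 3.6 higher in Foxp3-KO preTreg (adjusted p = 0.00602) and 4.54 higher in WT Treg (adjusted p = 0.00155). Sytl1, a Rab27 effector, was 1.85 higher in Nr4a-TKO preTreg (adjusted p = 0.00111) and 1.09 higher in WT Treg (adjusted p = 0.00636), and in Foxp3-KO preTreg its difference was -0.08 (adjusted p = 0.720). Ctsh, a lysosomal aminopeptidase, was 3.94 higher in Nr4a-TKO preTreg (adjusted p = 0.00375), and Vamp7, a vesicle SNARE, was lower in WT Treg (-0.54, adjusted p = 0.00374). Rab27a, the GTPase of granule docking, was lower in Foxp3-KO preTreg (-0.82, adjusted p = 0.00852).

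Of 5 tested granzyme inhibitors and protective genes, 3 rose in Nr4a-TKO preTreg, 3 in Foxp3-KO preTreg and 1 in WT Treg, each against WT Tconv, and 0 fell. The shares higher over all tested genes were 21.4%, 10.4% and 13.8%. The list medians were 1.33, 0.76 and 0.65. Serpinb9, the mouse inhibitor of granzyme B, had -0.42 and -0.45 in Nr4a-TKO preTreg, 0.39 and -0.19 in Foxp3-KO preTreg, -0.18 and -0.25 in WT Treg, and -0.62 and -0.63 in WT Tconv. Its difference of 0.19 in Nr4a-TKO preTreg was not called (adjusted p = 0.419), and in Foxp3-KO preTreg it was 0.72 higher (adjusted p = 0.0409). Serpinb6a, an intracellular serpin, was 1.56 higher in Nr4a-TKO preTreg (adjusted p = 0.0104) and 1.75 higher in WT Treg (adjusted p = 0.00988). Serpina3f was 4.52 higher in Nr4a-TKO preTreg (adjusted p = 0.0211), and Cst3, cystatin C, 1.33 higher (adjusted p = 0.00487).

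Of 10 death ligands and effector cytokines, 7 were higher in Nr4a-TKO preTreg than in WT Tconv and 0 lower, against 2 and 0 in Foxp3-KO preTreg and 3 and 0 in WT Treg. Ccl3, among the 7, was well above background on 3 arrays, both of Nr4a-TKO preTreg and Foxp3-KO preTreg replicate 1. It was tested only because both Nr4a-TKO preTreg arrays were above background, so its call there is no separate support. Over all tested genes 21.4%, 10.4% and 13.8% were higher. The list medians were 1.77, 1.60 and 0.81. Ccl4, a chemokine released by activated cytotoxic cells, had 6.01 and 5.82 in Nr4a-TKO preTreg, 2.60 and -1.40 in Foxp3-KO preTreg, -0.57 and -0.73 in WT Treg, and -1.04 and -1.21 in WT Tconv. It was 7.04 higher in Nr4a-TKO preTreg than in WT Tconv (adjusted p = 0.00705). Tnfsf10, the death ligand TRAIL, was 1.51 higher (adjusted p = 0.00632), Ltb 0.53 higher (adjusted p = 0.00781) and Lta 1.56 higher (adjusted p = 0.000677). Lta rose likewise in Foxp3-KO preTreg (1.64, adjusted p = 0.00120) and WT Treg (1.93, adjusted p = 0.000422). Fasl, the Fas ligand, had 1.86 and 1.68 in Nr4a-TKO preTreg and 0.81 and 0.80 in WT Tconv. Its difference of 0.97 was not called (SE 0.66, adjusted p = 0.271). Ifng had 2.93 and 2.79 in Nr4a-TKO preTreg and -1.14 and -1.25 in WT Tconv, also without a call (4.06, SE 1.45, adjusted p = 0.0647). Both SEs include the Foxp3-KO preTreg arrays, where the standard deviation was 1.56 for Fasl and 3.42 for Ifng. In Nr4a-TKO preTreg it was 0.13 and 0.097, and in WT Tconv 0.010 and 0.077.

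Among 17 tested transcriptional regulators of the cytotoxic programme, 9 rose and 3 fell in Nr4a-TKO preTreg against WT Tconv, 5 and 1 in Foxp3-KO preTreg and 7 and 3 in WT Treg. Over all tested genes 48.2%, 24.6% and 35.4% were called in either direction. The list medians were 1.28, 0.30 and 0.97, the last being 0.45 with genes below background at their bound. Irf4, a factor induced by T cell receptor signals, had 3.91 and 3.83 in Nr4a-TKO preTreg, 2.14 and 2.09 in Foxp3-KO preTreg, 2.45 and 2.52 in WT Treg, and 2.26 and 2.29 in WT Tconv. It was 1.60 higher in Nr4a-TKO preTreg than in WT Tconv (adjusted p = 0.000219), and the other 6 arrays lay between 2.09 and 2.52. Bhlhe40, a regulator of effector cytokines, was 6.05 higher (adjusted p = 0.000655), Hopx 4.15 higher (adjusted p = 0.000823) and Stat5a 0.66 higher (adjusted p = 0.00577). Prdm1, the repressor Blimp-1 of effector lymphocytes, was 3.93 higher (adjusted p = 0.00356). Tbx21, the T-bet factor of type 1 effector cells, had 3.45 and 3.43 in Nr4a-TKO preTreg against 2.18 and 2.14 in WT Tconv. Its difference of 1.28 was not called (SE 0.75, adjusted p = 0.207), nor was Eomes (1.83, adjusted p = 0.123) or Runx3 (0.27, adjusted p = 0.315). The Tbx21 standard deviation was 0.012 in Nr4a-TKO preTreg and 0.025 in WT Tconv. In Foxp3-KO preTreg, whose arrays also enter that SE, it was 1.76. Zbtb7b, the ThPOK factor of the CD4 lineage, fell in Nr4a-TKO preTreg (-1.23, adjusted p = 0.00334), in Foxp3-KO preTreg (-0.97, adjusted p = 0.0148) and in WT Treg (-0.96, adjusted p = 0.00962).

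**Figure D4:**
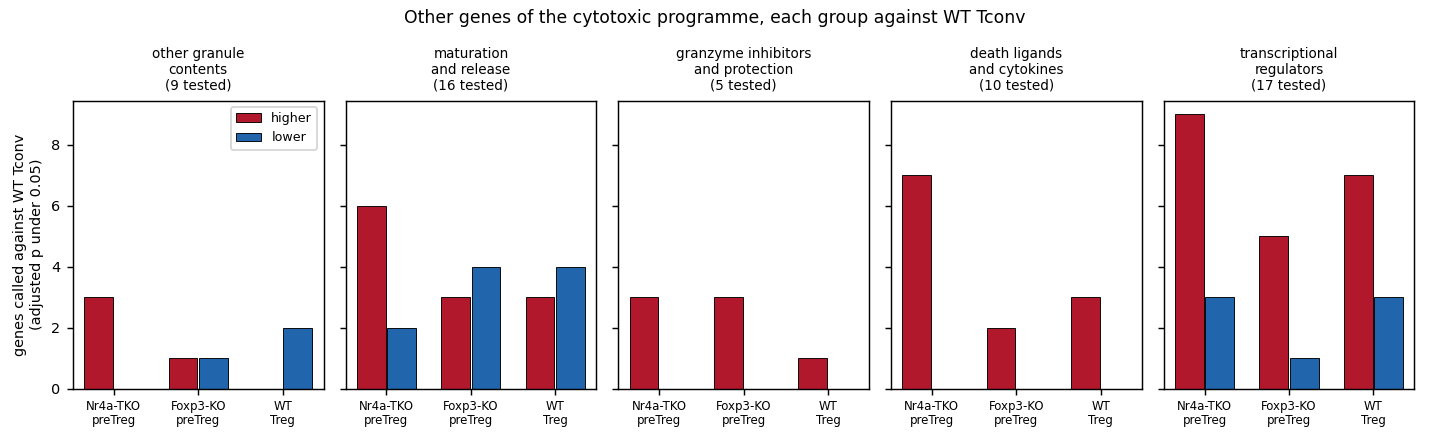
Number of genes called higher (red) and lower (blue) than in WT Tconv at an adjusted p under 0.05 (vertical axis) in 5 lists, for Nr4a-TKO preTreg, Foxp3-KO preTreg and WT Treg (horizontal axis). In the list of death ligands and cytokines 7 of 10 genes rose in Nr4a-TKO preTreg, against 2 in Foxp3-KO preTreg and 3 in WT Treg. Ccl3, among the 7, was tested only through its signal in Nr4a-TKO preTreg.

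The genes whose pattern over the 8 arrays was closest to that of a member were named by the root mean square difference of their log2 values after centring, which is a description. For Gzma these were Klrb1b, an NK receptor of the list above (0.38), and Clnk (0.41), an adaptor of immune receptors. For Gzmb they were Ier3 (0.71) and Vdr (0.73), for Nkg7 S100a11 (0.21) and Sytl3 (0.23), a Rab27 effector of the release list, and for Srgn Adam9 and Agpat4 (0.14 each). Within the 8 members, Gzma and Gzmb differed by 2.86 on this measure and Nkg7 and Srgn by 0.58. The dim or steady genes had close neighbours at small values, such as Nek7 for Gzmm (0.075) and Kirrel3 for Gzmk (0.081), where the arrays themselves differed little. For Prf1 they were Egfl7 and Fhl2 (0.18 each), and for Ctsw Olfr96 (0.10) and Zbtb11os1 (0.12). Over the 8 arrays, which share 4 groups, Pearson's r with the closest gene ran from 0.873 for Gzmk to 0.993 for Srgn.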

How the data were processed

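Per the labels' protocols, 10 ng of RNA from each of 8 samples was labelled with Cy3 and hybridised to 1 array. Per the file headers, the deposited processed intensity of each spot came from Agilent Feature Extraction 10.7.1.1, with background subtraction and detrending and no scaling between arrays. The deposited value table held the same intensities, linear and scaled near the 75th percentile. Here control spots and outlier flags were left out and each array's 75th percentile was subtracted on the log2 scale, so log2 values were computed here from the deposited intensities. Of 55681 probes, 28026 had a symbol through RefSeq (GRCm38.p6), 27655 had none and 1595 accessions did not match. A gene was its probe with the highest mean signal and was tested if well above background on both arrays of at least 1 group. One model of all 4 groups was fitted in limma 3.58.1 (R 4.3.3), with Benjamini-Hochberg adjustment over 13498 genes and 95% intervals. The code was tested on simulated data. Alternatives covered scaling, background, filters, probes, the groups fitted, a replicate block and leaving out each array. The normexp alternative used the median pixel signal, since no mean signal was in the files used here. Promoter sequences were RefSeq's on GRCm38.p6, for 7 of 8 members. All members were named, with up to 4 genes of each list by smallest adjusted p against WT Tconv and the 2 genes closest to each member. Rab27a, Gzmc, Fasl, Ifng, Ccl3, Cd14, Tbx21, Eomes, Runx3, Prdm1, Klrd1 and Ncr1 were named after their values were seen. The members and lists were chosen with earlier results of these data known. The number of arrays limits the precision, with 4 residual degrees of freedom.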

Additional observations from a re-analysis of the deposited data

How the results depend on the processing

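Apart from the fits without 1 array, Gzmb, Srgn and Nkg7 were called in Nr4a-TKO preTreg against WT Tconv under every scaling, background, filter, probe, fit and block alternative run. Against WT Tconv, WT Treg had 1 member called under quantile normalization, 1 under median scaling, 1 with the replicate block, 1 at a minimum of 2-fold, 0 with no filter on dim probes and 6 with only the 2 groups fitted, where the main count was 2. Nothing in the labels says that a replicate number marks a shared animal or day. Deviations of same-numbered arrays correlated at 0.15, 0.19 and 0.26 between Nr4a-TKO preTreg, Foxp3-KO preTreg and WT Treg, and between -0.03 and -0.01 with WT Tconv. With 2 arrays a group these values cannot settle whether same-numbered arrays share an effect. The main fit did not use the numbers as pairs. The replicate block moved no other member count and no gene count by over 1.5 times, and gave 6210 genes for Nr4a-TKO preTreg and 4483 for WT Treg against WT Tconv. With only the 2 groups fitted, 0 members were called between Nr4a-TKO preTreg and Foxp3-KO preTreg. Over all genes, a minimum of 2-fold gave 2626, 1087 and 1630 calls for Nr4a-TKO preTreg, Foxp3-KO preTreg and WT Treg against WT Tconv, 1760 and 375 for Nr4a-TKO preTreg and Foxp3-KO preTreg against WT Treg, and 1615 between the precursor groups. Foxp3-KO preTreg against WT Tconv gave 3326 calls, and 5027 with median scaling (1133 higher, 3894 lower, against 1399 and 1927), 2146 with no filter and 1285 with only the 2 groups. Foxp3-KO preTreg against WT Treg gave 865, and 400 with no filter, 1305 with an intensity trend and 0 with only the 2 groups in limma. Nr4a-TKO preTreg against Foxp3-KO preTreg gave 4558, and 7371 with no filter and 893 with only the 2 groups. Median scaling shifted the median of all genes by up to -0.15 and also moved the higher and lower calls to 1471 and 4234 in WT Treg against WT Tconv (1867 and 2907 before), 2898 and 1418 in Nr4a-TKO preTreg against WT Treg (2625 and 2151) and 2759 and 1375 between the precursor groups (2435 and 2123). The sign turned, with no call, for Gzmk in Nr4a-TKO preTreg against WT Tconv (-0.0099, median scaling), in Foxp3-KO preTreg against WT Tconv (-0.062 quantile, -0.12 median scaling) and in WT Treg against WT Tconv (0.030, normexp). It also turned for Nkg7 in WT Treg against WT Tconv (0.032 with quantile normalization and 0.033 with its other probe, an alternative chosen after seeing the data), for Gzmb in Foxp3-KO preTreg against WT Treg (0.071, normexp) and for Ctsw between the precursor groups (0.042, median scaling). The cause was not tested.

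Leaving out 1 array gave 1 to 3 members called for Nr4a-TKO preTreg, 0 to 4 for Foxp3-KO preTreg and 0 to 6 for WT Treg against WT Tconv, 1 to 5 for Nr4a-TKO preTreg and 0 to 3 for Foxp3-KO preTreg against WT Treg, and 1 to 4 between the precursor groups. The matching ranges of genes called were 3080 to 7182, 470 to 4141, 1655 to 5734, 2121 to 5837, 71 to 1342 and 2027 to 5336. In Foxp3-KO preTreg against WT Tconv the differences ranged from -0.48 to 2.98 for Gzma, -2.67 to 0.45 for Gzmb, -0.23 to 0.31 for Gzmk, -0.75 to 0.34 for Prf1, -0.86 to 1.44 for Nkg7 and -0.17 to 0.51 for Ctsw. In Foxp3-KO preTreg against WT Treg they ranged from -1.58 to 1.54 for Gzmb, -0.20 to 0.33 for Gzmk, -0.44 to 0.085 for Gzmm, -0.16 to 0.93 for Prf1, -0.79 to 1.5 for Nkg7, -0.87 to 0.032 for Srgn and -0.65 to 0.034 for Ctsw. Between the precursor groups they ranged from -3.43 to 0.024 for Gzma, -0.24 to 0.30 for Gzmk, -0.38 to 0.14 for Gzmm, -0.070 to 1.02 for Prf1 and -0.38 to 0.31 for Ctsw. Gzmk ranged from -0.029 to 0.16 and Ctsw from -0.036 to 0.30 in Nr4a-TKO preTreg against WT Tconv, and Gzmk from -0.00069 to 0.19 in Nr4a-TKO preTreg against WT Treg, and from -0.11 to 0.049 in WT Treg against WT Tconv. Each group holds 2 arrays, so a single array can move the spread estimate and with it the calls.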
